A study of Mus musculus with 6 samples.

Results

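Complex I (NADH:ubiquinone oxidoreductase) was followed through its nuclear genes, taken as every row of the deposited table whose gene name starts with Nduf. The rule gave 47 members among 21900 distinct gene symbols: 8 assembly factors, whose names start with Ndufaf, and 39 genes named as subunits. RNA was sequenced from the inguinal (groin) white fat pad of C57BL/6 mice aged 2 months that had been moved from 22 °C to 4 °C for 7 days. The knockout group (Foxp4AdipoQΔ/Δ in the labels, 3 samples) lacks the forkhead transcription factor Foxp4 through a Cre recombinase named for AdipoQ, the adiponectin gene, whose promoter is active in mature adipocytes. The control group (Foxp4fl/fl, 3 samples) carries the floxed gene, and all 6 samples were cold-exposed. The labels name no Cre in the controls, so effects of Cre and of Foxp4 loss cannot be told apart. Whether each sample is a single animal or several is not in the labels, and the p-values therefore cover the spread among these 6 samples alone.

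Complex I is the entry point of electrons from NADH into the respiratory chain of the inner mitochondrial membrane. Its peripheral arm oxidises NADH in the N module and passes the electrons along iron-sulphur clusters to ubiquinone in the Q module, and its membrane arm pumps protons. Nuclear genes encode the core subunits of the peripheral arm and all accessory subunits, the mitochondrial genome encodes the core of the membrane arm, and assembly factors help to build the enzyme without staying in it. In cold-exposed fat the chain runs fast where the uncoupling protein Ucp1 lets protons flow back without making ATP.

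The values are the authors' FPKM (fragments per kilobase of exon, scaled to library size). Levels compared between genes therefore depend on the length of each exon model. Whole reads recovered from the FPKM values summed to between 13180591 and 15998338 per library. Foxp4, on the minus strand of chromosome 17 (47867133 to 47924645, mm10), had 1.92, 1.71 and 1.64 FPKM in knockout replicates 1 to 3, against 5.76, 4.01 and 4.62 FPKM in control replicates 1 to 3. All knockouts lay below all controls, although the fitted log2 difference of -1.06 (SE 0.12) had an adjusted p of 0.070 in limma. Defining markers of fat were abundant: 12 mature adipocyte markers summed to 12321 to 13946 FPKM in knockouts and 16196 to 18123 FPKM in controls, with none at 0. Differences below are knockout minus control on the log2(FPKM + 1) scale, from limma over the 10787 genes that averaged 1 FPKM or more in knockouts or in controls, and adjusted p-values are Benjamini-Hochberg values over all of these genes.

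Complex I transcripts had slightly higher means in knockouts, and no member passed the threshold on its own. Of the 47 members 46 entered the test, and 44 of them had a log2 difference above 0, as did 34.0% of all genes tested. The median over these members was 0.25, the median over all genes tested -0.082, and the median ratio of group means, knockout over control, was 1.19 (range 0.933 to 1.49). At an adjusted p of 0.05 in limma 0 members were called, against 0.00927% of all genes. At an unadjusted p of 0.05 in limma 20 of 46 members were higher and 0 lower, where 6.98% of all genes were higher and 17.1% lower. All 3 knockouts lay above all 3 controls in 23 of 46 members, against 8.48% of all genes, and below them in 0 members, against 22.7%. Read by its own 95% interval, the difference included 0 in 26 of the 46 members. Whole tissue was sequenced, so more cells rich in mitochondria and more RNA per cell cannot be told apart.

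**Figure D1:**
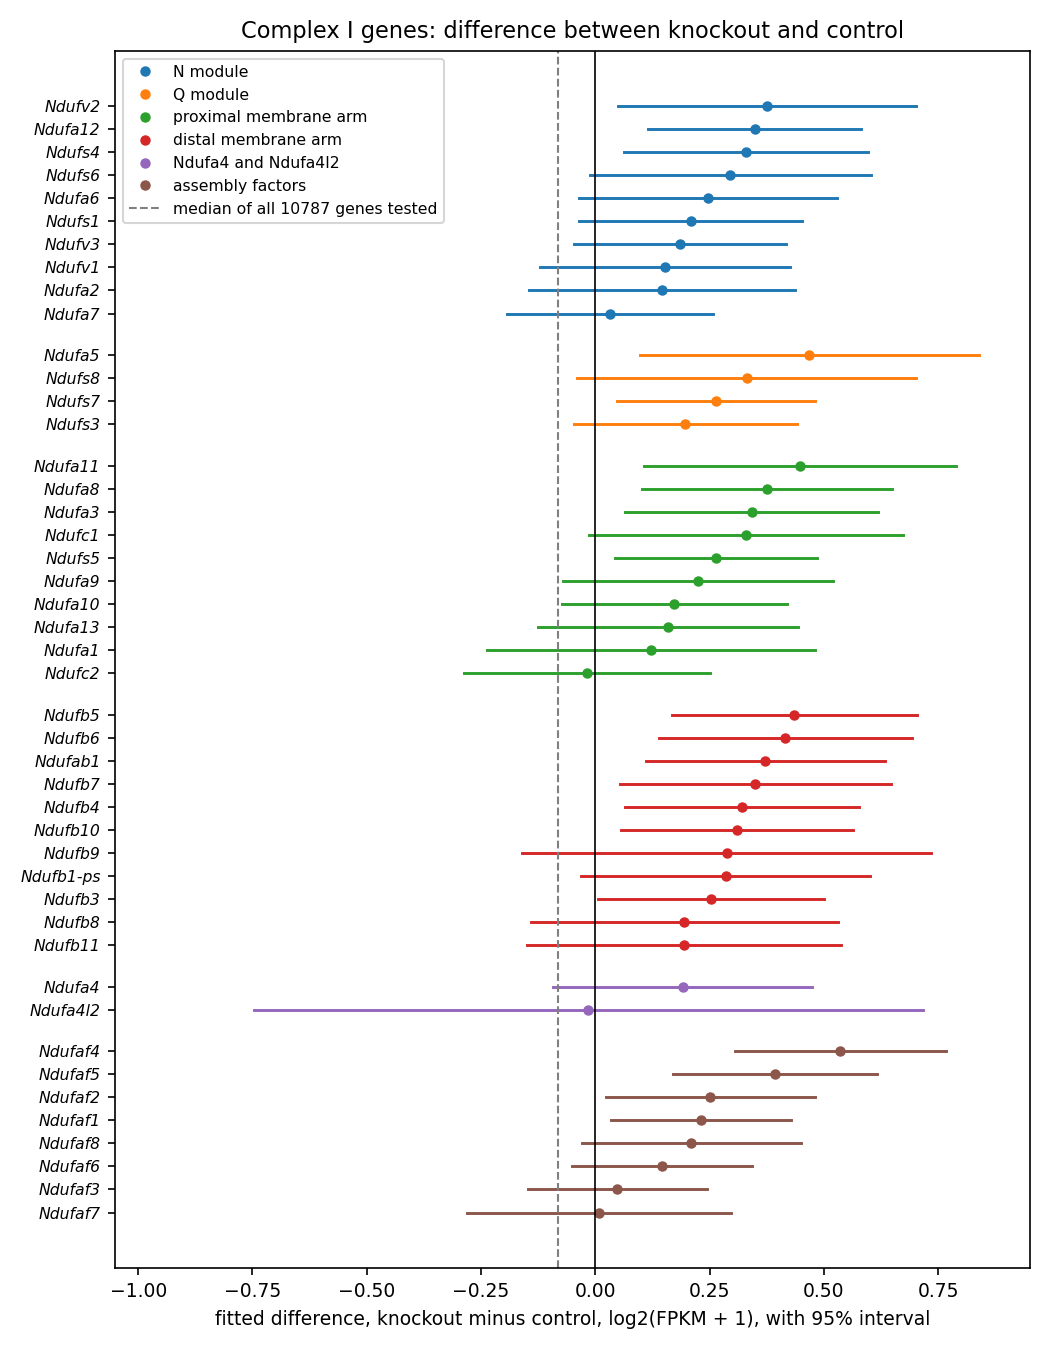
Fitted difference (knockout minus control, log2(FPKM + 1)) of 45 of the 46 tested complex I genes, as a point with its 95% interval, coloured by module or role, with the median of all genes tested as a dashed line at -0.082. Nearly all points lie right of 0, from -0.018 for Ndufc2 to 0.54 for Ndufaf4, and 25 of the intervals drawn include 0.

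Single libraries moved the number of members higher at an unadjusted p of 0.05 in limma. That number was 12, 6 and 17 without knockout replicates 1, 2 and 3 in turn, where 4.84%, 3.73% and 7.29% of all genes were higher. Leaving out control replicates 1, 2 and 3 in turn gave 9, 27 and 21, where 5.10%, 6.31% and 8.33% of all genes were higher. Without control replicate 1 the median over members was 0.16, with 41 of 46 above 0. Under median-of-ratios scaling all 46 were above 0, with 31 higher at an unadjusted p of 0.05 in limma, but 12.2% of all genes were then higher too.

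The members moved together from library to library. Relative to its own mean over the 6 libraries, the median member stood at 0.095, 0.21 and 0.072 log2 units in knockout replicates 1 to 3, against -0.32, -0.000089 and -0.073 in control replicates 1 to 3. Control replicate 1 was the lowest library in 42 of 46 members, a place it held in 16.4% of all genes tested. Knockout replicate 2 was the highest in 36 of 46, against 14.9% of all genes. Control replicate 2 lay above the lowest knockout in 21 members, control replicate 3 in 6 and control replicate 1 in 1. The groups therefore met mainly through control replicate 2. Control replicate 1 added to the size of the difference, whose median over members was 0.25 with it and 0.16 without it.

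**Figure D2:**
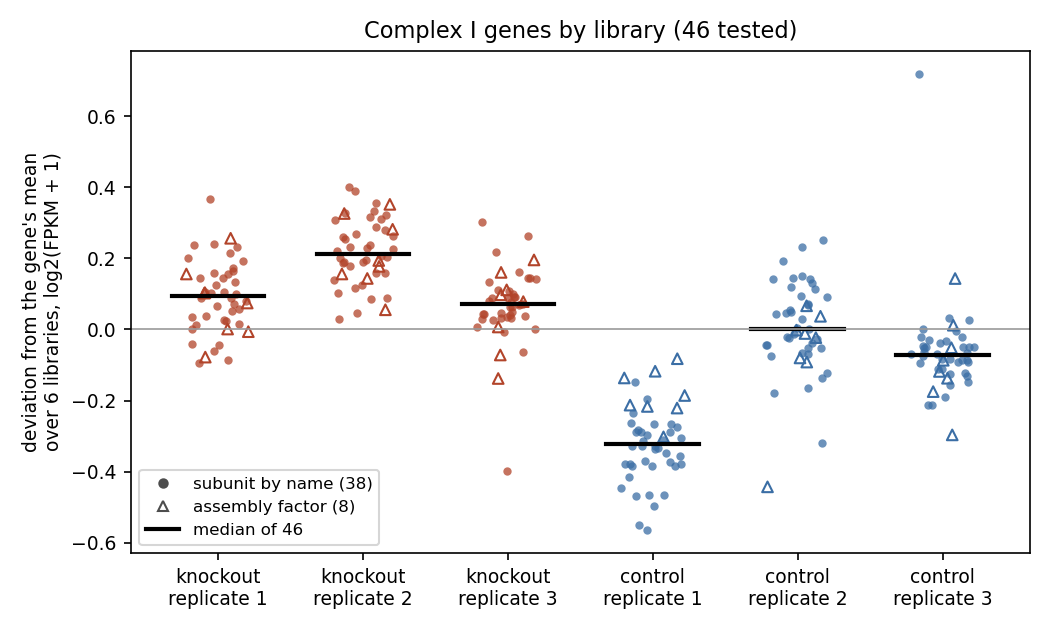
Deviation of each of the 46 tested complex I genes from its own mean over the 6 libraries (log2(FPKM + 1)), by library, with filled circles for 38 genes named as subunits, open triangles for 8 assembly factors and a bar at the median. Control replicate 1 sits lowest, with a median of -0.32, and knockout replicate 2 highest, at 0.21.

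The 7 core subunits of the peripheral arm include those that carry the flavin and the iron-sulphur clusters. All 7 had positive log2 differences, with a median of 0.22 that was 0.12 without control replicate 1. At an unadjusted p of 0.05 in limma 2 of the 7 were higher, against 6.98% of all genes. Without control replicate 1 the count was 0, against 5.10%. Ndufv1, which binds NADH and the flavin, had 159, 168 and 156 FPKM in knockouts and 127, 169 and 141 FPKM in controls. Its highest value was that of a control, and its log2 difference of 0.15 (SE 0.12) was the smallest of the 7, and 0.059 without control replicate 1.

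Ndufv2, the iron-sulphur partner of Ndufv1, stood at 143, 161 and 134 FPKM in knockouts against 92.3, 127 and 120 FPKM in controls. The groups did not overlap, and the log2 difference was 0.37 (SE 0.14, adjusted p = 0.17 in limma), and 0.24 without control replicate 1. Ndufs7, which holds the last cluster before ubiquinone, had 114, 117 and 105 FPKM in knockouts against 85.0, 99.1 and 96.3 FPKM in controls, also without overlap (log2 difference 0.26, SE 0.092, adjusted p = 0.15 in limma). Ndufs8, another cluster subunit of the Q module, had 135, 142 and 116 FPKM in knockouts and 82.0, 114 and 119 FPKM in controls. Here control replicate 3 exceeded knockout replicate 3, and the log2 difference of 0.33 was 0.16 without control replicate 1. Ndufs3, a Q module subunit without a cluster, had 108, 115 and 107 FPKM in knockouts against 83.9, 106 and 98.9 FPKM in controls. It did not overlap, but its highest control and lowest knockout were nearly level, and the 95% interval of its log2 difference ran from -0.046 to 0.44, around 0.20, a difference that was 0.10 without control replicate 1. Ndufs1, the largest subunit and an iron-sulphur protein of the N module, had 42.9, 47.9 and 45.7 FPKM in knockouts and 34.5, 43.9 and 39.8 FPKM in controls, with overlap through control replicate 2 (log2 difference 0.21, and 0.12 without control replicate 1).

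Among the accessory subunits the 8 with the smallest p-values were Ndufb5, Ndufb6, Ndufa12, Ndufab1, Ndufa8, Ndufa11, Ndufa5 and Ndufb4. None passed an adjusted p of 0.05 in limma (0.10 to 0.15). The groups did not overlap in any of the 8, which their choice by p nearly fixes, beside 23 of all 46 members and 8.48% of all genes. Ndufb5, a membrane subunit of the distal arm, had 17.1, 18.5 and 16.4 FPKM in knockouts against 10.6, 13.3 and 14.1 FPKM in controls, on 745 to 1266 reads per library (log2 difference 0.43, SE 0.11). Ndufb6, of the same arm, had 132, 163 and 138 FPKM in knockouts against 95.4, 114 and 114 FPKM in controls (log2 difference 0.42, SE 0.12). In both genes control replicate 1 was the lowest library and knockout replicate 2 the highest. Ndufb4 had 48.7, 56.4 and 47.7 FPKM in knockouts against 35.7, 43.7 and 42.4 FPKM in controls. Ndufab1, the mitochondrial acyl carrier protein, which also serves fatty acid synthesis in mitochondria, had 12.5, 13.5 and 12.2 FPKM in knockouts against 8.06, 10.6 and 10.3 FPKM in controls.

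Ndufa5, an accessory subunit of the Q module, had the highest log2 difference among the genes named as subunits, 0.47 (SE 0.16, 95% interval 0.097 to 0.84). It stood at 98.5, 110.5 and 87.1 FPKM in knockouts against 56.7, 83.5 and 74.8 FPKM in controls. Both groups spread widely, and without control replicate 1 its log2 difference was 0.31. Ndufa8, a subunit on the intermembrane-space face of the membrane arm, had 244, 257 and 207 FPKM in knockouts against 164, 184 and 197 FPKM in controls. Ndufa11, a membrane subunit, had 14.9, 15.4 and 14.1 FPKM in knockouts against 8.13, 12.1 and 11.9 FPKM in controls. Ndufa12, a late-joining subunit of the N module, had 86.6, 94.5 and 84.4 FPKM in knockouts against 62.9, 77.1 and 68.4 FPKM in controls. Its log2 difference was 0.35 (SE 0.099), and 0.28 without control replicate 1.

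The 4 genes named as subunits with the lowest differences were Ndufc2, Ndufa4l2, Ndufa7 and Ndufa1. Ndufc2, a membrane-arm subunit, had 123, 134 and 134 FPKM in knockouts and 114, 150 and 134 FPKM in controls (log2 difference -0.018, 95% interval -0.29 to 0.26). The control values lay on both sides of the knockouts. Ndufa7, an accessory subunit of the peripheral arm, had 49.3, 52.6 and 52.6 FPKM in knockouts and 45.8, 56.6 and 49.2 FPKM in controls (log2 difference 0.031, 95% interval -0.19 to 0.26). Ndufa1, a small X-linked membrane subunit, had 148, 157 and 158 FPKM in knockouts and 113, 174 and 145 FPKM in controls. All 3 of these genes had their highest value in control replicate 2 and their lowest in control replicate 1. The sign of the difference turned under median-of-ratios scaling for Ndufc2 (0.067), and without control replicate 1 for Ndufa7 (-0.035) and Ndufa1 (-0.040).

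**Figure D3:**
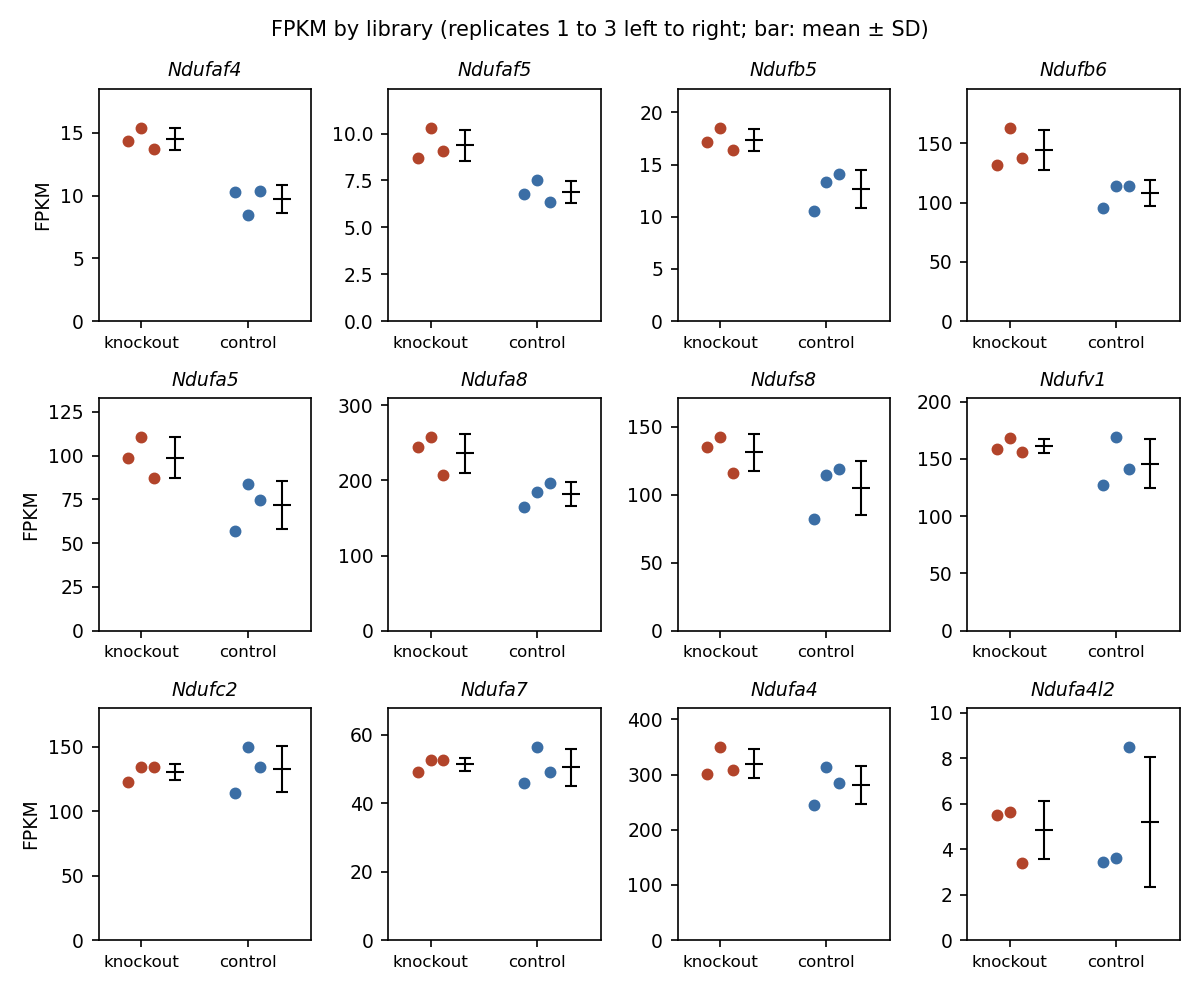
FPKM of 12 genes in each library, knockouts left and controls right, replicates 1 to 3 from left to right, with the mean ± SD of each group (n = 3). Ndufaf4, Ndufaf5, Ndufb5, Ndufb6, Ndufa5 and Ndufa8 do not overlap between groups, whereas Ndufs8, Ndufv1, Ndufc2, Ndufa7, Ndufa4 and Ndufa4l2 do.

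By module, the median log2 difference was 0.23 over 10 N module genes, 0.26 over 5 Q module genes, 0.24 over 10 genes of the proximal membrane arm and 0.31 over 11 genes of the distal membrane arm. At an unadjusted p of 0.05 in limma 3, 2, 4 and 7 of them were higher, in that order, where 6.98% of all genes were. Without control replicate 1 these counts were 1, 1, 2 and 3, where 5.10% of all genes were higher, and the medians 0.14, 0.16, 0.13 and 0.22. The difference between modules was not tested. Across the 46 members the log2 difference had a Spearman correlation of -0.11 with mean FPKM and 0.060 with exon length, as a description of genes that share the same libraries.

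Ndufa4 and Ndufa4l2 carry the family name, although Ndufa4 is now assigned to cytochrome c oxidase (complex IV) and its paralog Ndufa4l2 is known as a gene induced by low oxygen. By FPKM Ndufa4 was the most abundant member, with 301, 351 and 308 FPKM in knockouts and 244, 313 and 285 FPKM in controls (log2 difference 0.19, SE 0.12, adjusted p = 0.36 in limma), and its difference was 0.095 without control replicate 1. It had the library order of the complex I subunits, control replicate 1 lowest and knockout replicate 2 highest. Ndufa4l2 had 5.50, 5.64 and 3.38 FPKM in knockouts and 3.44, 3.62 and 8.50 FPKM in controls, on 53 to 150 reads per library. It broke the common order, with its highest value in control replicate 3 and its lowest in knockout replicate 3. Within a library the log2 ratio of Ndufa4l2 to Ndufa4 averaged -5.80 in knockouts and -5.60 in controls. The difference of -0.21 had a p of 0.80 in an exact two-sided permutation test, whose smallest possible p is 0.10, and it was 0.14 without control replicate 3.

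The 8 assembly factors had lower levels than most subunits, from 4.32 FPKM for Ndufaf2 to 26 FPKM for Ndufaf1 on average. All 8 had a log2 difference above 0 as deposited, with a median of 0.22. Of them 4 reached an unadjusted p of 0.05 in limma, all higher, against 6.98% of all genes, and 2 did without control replicate 1, against 5.10%. All knockouts lay above all controls in 5, against 8.48% of all genes. Ndufaf4, a chaperone of early complex I assembly intermediates, had 14.3, 15.4 and 13.7 FPKM in knockouts against 10.3, 8.45 and 10.4 FPKM in controls. Its lowest control was replicate 2, unlike nearly all other members. Its log2 difference of 0.54 (SE 0.098, 95% interval 0.31 to 0.77) was the highest of all members, with the lowest adjusted p, 0.077 in limma. Leaving out 1 library gave 0.45 to 0.58, and 0.58 without control replicate 1, with adjusted p-values of 0.081 to 0.29 in limma.

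Ndufaf5, which in human cells modifies an arginine of the NDUFS7 subunit, had 8.69, 10.3 and 9.09 FPKM in knockouts against 6.79, 7.54 and 6.35 FPKM in controls, on 171 to 246 reads per library. The groups did not overlap, and its log2 difference of 0.39 (SE 0.095, adjusted p = 0.094 in limma) was also nearly the same without control replicate 1 (0.39). Over all alternatives, replicates left out included, the adjusted p in limma ran from 0.061 to 0.29 for Ndufaf4 and from 0.073 to 0.30 for Ndufaf5. Ndufaf1, of the complex that assembles the membrane arm, had 27.3, 29.7 and 27.4 FPKM in knockouts against 22.1, 25.7 and 23.8 FPKM in controls (log2 difference 0.23, SE 0.084). Ndufaf2, a paralog of Ndufa12 that acts late in assembly, had 4.68, 4.98 and 4.66 FPKM in knockouts against 3.29, 4.21 and 4.10 FPKM in controls. At the other end, Ndufaf3, which works with Ndufaf4, had 10.5, 11.7 and 9.97 FPKM in knockouts and 9.89, 10.5 and 10.6 FPKM in controls. Ndufaf7, a methyltransferase of the mitochondrial matrix, had 9.50, 10.7 and 8.58 FPKM in knockouts and 8.04, 10.04 and 10.6 FPKM in controls. Both overlapped, with log2 differences of 0.048 and 0.0077, and the sign turned for both when knockout replicate 2 was left out (-0.011 and -0.068), for Ndufaf7 also without control replicate 1 (-0.10).

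Because the members moved together, their promoter windows were read for short motifs of factors known to act on respiratory or cold-induced genes (RefSeq, GRCm38.p6, 250 bases before to 50 after the annotated start; 41 of the 47 members matched, with 43 windows). The 250 bases upstream of Ndufaf4, the member with the lowest p, are shown as 1 whole example, on the plus strand at chr4:24897833-24898082. Capitals mark the letters of the motif of nuclear respiratory factor 1 (NRF1), searched on both strands as GCGC, then any base, then TGCGC.
Ndufaf4 upstream: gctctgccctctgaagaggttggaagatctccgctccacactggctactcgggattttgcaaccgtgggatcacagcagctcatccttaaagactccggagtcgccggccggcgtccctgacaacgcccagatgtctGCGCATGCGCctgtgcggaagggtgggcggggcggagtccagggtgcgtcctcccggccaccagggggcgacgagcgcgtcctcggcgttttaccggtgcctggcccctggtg

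The background was all 32851 RefSeq windows, not limited to genes tested here and not matched for base content. Whether a higher share of any motif is particular to complex I was therefore not tested. The NRF1 letters stood in 10 of 43 member windows (23.3%), those of 9 genes, against 4.6% of all 32851 windows. The other 8 genes are shown with 10 bases on either side of the motif in capitals, each 5′ to 3′ on the strand of its gene, so that the shared core can be compared. Ndufb4 held 3 matches, of which the one nearest its start is shown.
Ndufa8, minus strand, chr2:36049349-36049378: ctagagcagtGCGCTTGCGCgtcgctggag
Ndufaf5, plus strand, chr2:140170652-140170681: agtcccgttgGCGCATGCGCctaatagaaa
Ndufs5, minus strand, chr4:123718265-123718294: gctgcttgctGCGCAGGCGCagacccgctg
Ndufa5, minus strand, chr6:24527697-24527726: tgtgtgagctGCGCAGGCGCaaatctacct
Ndufs6, minus strand, chr13:73328479-73328508: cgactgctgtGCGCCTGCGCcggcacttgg
Ndufa6, minus strand, chr15:82354249-82354278: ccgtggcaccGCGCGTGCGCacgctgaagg
Ndufb4, minus strand, chr16:37654371-37654400: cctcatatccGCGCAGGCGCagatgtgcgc
Ndufa11, plus strand, chr17:56717692-56717721: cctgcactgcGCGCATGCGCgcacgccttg

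Of these 9 genes, all tested, 7 were among the 20 members higher at an unadjusted p of 0.05 in limma (Ndufa11, Ndufa5, Ndufa8, Ndufaf4, Ndufaf5, Ndufb4 and Ndufs5), with a median log2 difference of 0.38. Of the 31 other tested members with a window, 13 were higher, with a median of 0.23, where 6.98% of all genes tested were higher. This split was looked at with the values known and has no test. The share higher among all genes with the NRF1 letters was not computed. Of the other motifs searched on both strands, AAGATGGC (YY1) was in 18.6% of member windows and 2.75% of all windows, and CCGGAAG (the core of ETS factors) in 14.0% and 8.86%. The cAMP response element TGACGTCA was in 6.98% and 1.79%, GGGCGG (Sp factors) in 51.2% and 35.7%, and CCAATC in 23.3% and 16.1%. AAGGTCA, a core of nuclear receptor sites, was in 6.98% and 4.72%, and its extended form TCAAGGTCA, bound by oestrogen-related receptors and always containing that core, in 0 of 43 and 0.423%. The forkhead letters TGTTTAC stood in 1 of 43 member windows, that of Ndufaf1, and in 3.65% of all windows. The same split, tested members with the letters and then without, had 3 of 8 and 17 of 32 higher for YY1. It was 3 of 6 and 17 of 34 for CCGGAAG, and 11 of 21 and 9 of 19 for GGGCGG. For CCAATC it was 3 of 10 and 17 of 30. Few tested members held the remaining letters, with 2 of 2 higher for AAGGTCA, 1 of 2 for TGACGTCA and 1 of 1 for TGTTTAC. A match is a run of letters and not a binding site, and its absence from this window says nothing of the factor.

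Complex I genes with other names were read beside the members. Of 12 further assembly genes, all tested, 9 had a log2 difference above 0, with a median of 0.13. An unadjusted p of 0.05 in limma was reached by 4, all higher, where 6.98% of all genes were higher. These 4 were Tmem126a, Ecsit, Tmem70 and Timmdc1, all membrane-arm assembly proteins or partners of them. Tmem126a had 10.97, 12.6 and 11.98 FPKM in knockouts against 7.95, 8.81 and 10.2 FPKM in controls. Ecsit, a partner of Ndufaf1, had 15.4, 16.1 and 13.8 FPKM in knockouts against 12.1, 12.7 and 12.3 FPKM in controls. Tmem70, which also serves ATP synthase, had 62.6, 66.9 and 60.4 FPKM in knockouts against 42.7, 54.5 and 52.7 FPKM in controls. The groups of all 4 did not overlap, which their choice by p nearly fixes, beside 8.48% of all genes. Their adjusted p-values in limma were 0.11 to 0.18.

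The 7 complex I subunits of the mitochondrial genome differed among themselves. The transcript mt-Nd1 had 13983, 16102 and 11608 FPKM in knockouts against 7624, 10324 and 10515 FPKM in controls, without overlap (log2 difference 0.55, SE 0.20, adjusted p = 0.17 in limma). For mt-Nd2 the values were 9574, 11302 and 7937 FPKM in knockouts and 5141, 7388 and 8019 FPKM in controls, with knockout replicate 3 below control replicate 3. By contrast mt-Nd4 averaged 4152 ± 252 FPKM in knockouts and 4189 ± 750 FPKM in controls, and mt-Nd5 averaged 4941 ± 236 FPKM in knockouts and 4808 ± 806 FPKM in controls (SD, n = 3). The other mitochondrial transcripts, mt-Nd3, mt-Nd4l and mt-Nd6, had log2 differences of 0.13, -0.15 and 0.042. Of these, mt-Nd3 rested on only 61 to 188 reads per library and mt-Nd4l on 29 to 78, against 12168 to 19592 for mt-Nd6. The differences of mt-Nd3 and mt-Nd4l are therefore poorly measured. All of the 7 but mt-Nd1 and mt-Nd2 had differences below 0 without control replicate 1. The median over the 7 was 0.053, and -0.13 without control replicate 1. Stretches of the mitochondrial genome are also found in nuclear DNA, and reads could be shared with them, so these levels are uncertain.

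In the other respiratory complexes too the list median was lowest in control replicate 1 and highest in knockout replicate 2. The median log2 difference was 0.24 over 4 complex II genes, 0.31 over 9 of complex III, 0.26 over 12 of complex IV and 0.28 over 16 of complex V, beside 0.27 over 36 complex I subunits without the Ndufa4 pair. Without control replicate 1 these medians were 0.13, 0.20, 0.13, 0.18 and 0.17. In control replicate 1 the median deviation from the gene means was -0.33 for complex I subunits and lay between -0.41 and -0.33 for the other 4 complexes. No difference between complex I and the others was tested, and none is claimed. Citrate synthase (Cs) is a matrix enzyme whose activity is often used as a measure of mitochondrial content, and only its RNA was measured here. That RNA stood at 341, 341 and 312 FPKM in knockouts against 232, 276 and 259 FPKM in controls. The log2 difference was 0.37 (SE 0.099, adjusted p = 0.10 in limma), and 0.31 without control replicate 1.

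**Figure D4:**
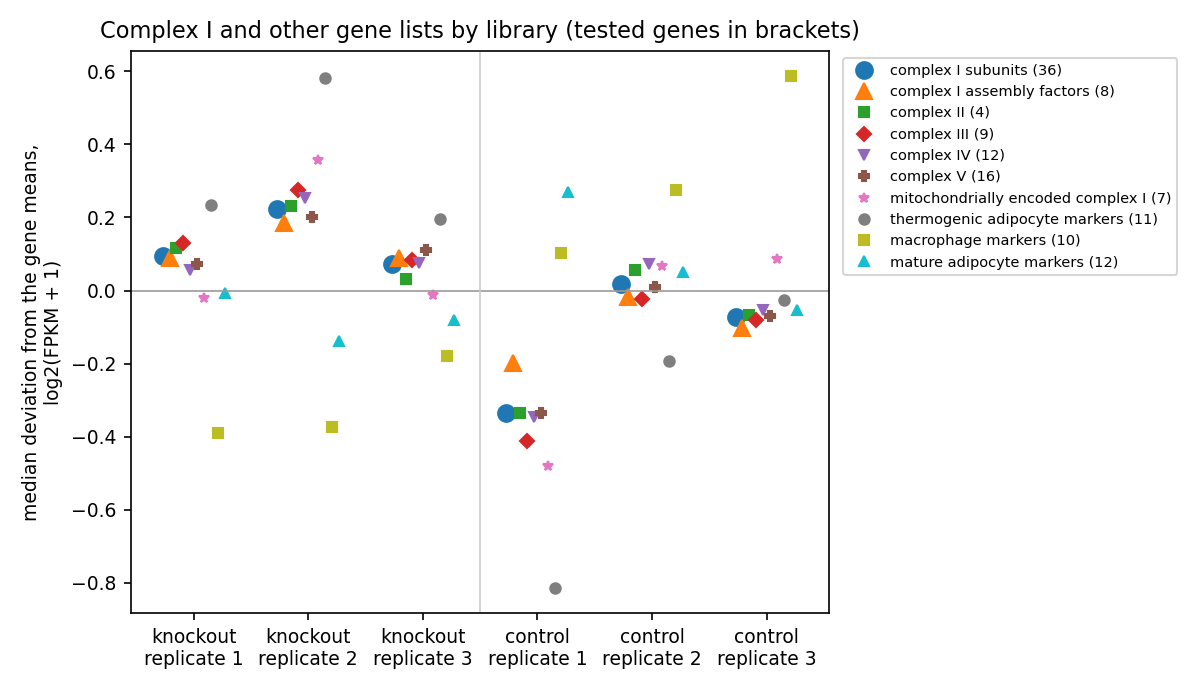
Median deviation from the gene means (log2(FPKM + 1)) of complex I subunits, assembly factors, mitochondrially encoded complex I, the other respiratory complexes and 3 cell marker lists, by library, with the number of tested genes in brackets. The respiratory lists are lowest in control replicate 1, where complex I subunits stand at -0.33 and thermogenic markers at -0.81, while macrophage markers are lower in every knockout than in any control.

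Markers of thermogenic adipocytes had the same lowest library. Ucp1 had 2898, 3009 and 1875 FPKM in knockouts and 800, 1333 and 2007 FPKM in controls. The 11 markers of that list stood at 0.23, 0.58 and 0.19 log2 units from their means in knockouts, against -0.81, -0.19 and -0.026 in controls. Their median log2 difference was 0.79, and 0.34 without control replicate 1. The list holds the complex IV genes Cox7a1 and Cox8b, so it is not separate from the respiratory lists. Ppargc1a, the coactivator of mitochondrial biogenesis, had 12.2, 20.8 and 12.1 FPKM in knockouts against 5.65, 8.02 and 5.44 FPKM in controls. Its partner Esrra, the oestrogen-related receptor alpha, had 37.3, 38.6 and 30.6 FPKM in knockouts against 24.2, 24.0 and 27.4 FPKM in controls. Both were without overlap between groups. Of the 12 tested biogenesis regulators, 7 had a log2 difference above 0 and 5 below, with a median of 0.042. At an unadjusted p of 0.05 in limma 4 were higher and 0 lower, where 6.98% of all genes were higher.

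Other cell types varied as well, and their part in the complex I values was not tested. All 10 macrophage markers were lower at an unadjusted p of 0.05 in limma, as were 17.1% of all genes. Their sums were 370 to 480 FPKM in knockouts and 585 to 780 FPKM in controls, with none at 0. The 12 mature adipocyte markers had a median log2 difference of -0.14, with 10 below 0 and 2 above. At an unadjusted p of 0.05 in limma 4 were lower and 1 higher, where 17.1% of all genes were lower and 6.98% higher. Fibroblast and progenitor markers summed to 472 to 629 FPKM in knockouts and 488 to 1250 FPKM in controls, highest in control replicate 3. Skeletal muscle, a tissue rich in complex I, gave marker sums of 23.2, 116 and 364 FPKM in knockouts and 77.4, 18.4 and 52.9 FPKM in controls, with Tnnc2 at 0 in all libraries. Among them Acta1, skeletal muscle actin, had 8.06, 28.9 and 103 FPKM in knockouts and 25.6, 6.33 and 18.1 FPKM in controls. Endothelial markers summed to 75.5 to 91.5 FPKM in knockouts and 68.5 to 132 FPKM in controls, and erythroid markers to 580 to 1100 FPKM in knockouts and 977 to 1951 FPKM in controls. Lymphocyte and epithelial markers summed to 2.13 to 4.76 and 0.165 to 0.699 FPKM in knockouts, against 2.76 to 5.24 and 0.431 to 1.26 FPKM in controls, with Krt14 at 0 in all libraries.

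To see which members departed from the common pattern, each library was centred on the median of the 36 subunits and all genes were fitted again. After centring 0 of 46 members passed an adjusted p of 0.05 in limma, where 0.315% of all genes passed it in the higher and 14.4% in the lower direction. Centring on the members themselves places them near 0 and moves all other genes, so these shares are set by the construction and nothing is read from the contrast. That no member departed from the subunit median past the adjusted threshold does not show that they changed alike. The centring was chosen after seeing the data.

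Levels differed more between members than between groups, from 4.32 FPKM for Ndufaf2 to 300.3 FPKM for Ndufa4 among the 46 tested genes. Part of this lies in the merged exon lengths. Ndufab1 averaged 11.2 FPKM on 782 to 1276 reads per library over 6883 bases. Ndufa1 averaged 149 FPKM on 668 to 1064 reads over 419 bases. Ndufb2, a distal-arm subunit, was the member left out of the test, with 0.721, 0.977 and 0.681 FPKM in knockouts and 0.631, 0.705 and 0.805 FPKM in controls, on 50 to 73 reads per library over 5628 bases of merged exons. Its exons share 145 bases on the same strand with the annotated gene Gm42420, and a processed pseudogene, Gm13186, is at least 95% identical over 100 bases or more. Ndufb9, at 18.1 FPKM on average, shares 201 of 1031 exon bases with Gm49356 on the same strand, and Ndufb8 shares 134 with Gm20538. Such near-identical stretches in annotated pseudogenes were found for 12 of the 47 members, Ndufa11, Ndufa12, Ndufb4, Ndufab1 and Ndufs5 among them. Counting other genes of any kind adds further members, such as Ndufaf2 with 23 genes matched and Ndufc1 with 13. Ndufab1 matched 16 genes and Ndufaf7 107, of which 1, Zkscan7, places Ndufaf7 among the 12. Exons of another gene on the opposite strand overlapped 18 members, for 1955 of 2978 bases in Ndufaf2, 616 of 4995 in Ndufb5 and 257 of 659 in Ndufb6. With the counting's strand setting and its treatment of shared reads not given in the sources used here, the levels of these genes are uncertain. The row named Ndufb1-ps, annotated as non-coding in GENCODE M21 and listed by RefSeq as a synonym of the coding gene Ndufb1, had a log2 difference of 0.29 (SE 0.13), with overlapping groups.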

How the data were processed

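Total RNA of the fat pads went through a stranded mRNA kit and was sequenced by Illumina HiSeq, per the labels' protocols. Reads were handled with cutadapt, HISAT2 and HTSeq on mm10, per the submitters' processing notes, with versions, annotation and strand setting not given in the sources used here. The authors deposited FPKM, read as such from the values: times the merged exon length (GENCODE M21) and 1 factor per library, 97.9 to 98.1% of values up to 50 reads were whole within 0.05. Of 21936 rows, 36 repeats of a symbol were left out. Reads were recovered for 21304 genes, and 1 read on a kilobase of exon is worth 0.062 to 0.075 FPKM.

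Genes were tested with limma 3.58.1 (R 4.3.3), its trend option on, applied to log2(FPKM + 1), which understates the change of low genes, genotype as the only term and a filter at a mean of 1 FPKM in either group. The fit was tested on simulated data in which each gene varied independently, so that test does not cover genes that move together. Near-identical copies were sought with BLAST+ 2.17.0. Members, lists and tests were chosen with earlier results of these data known. Named with values in every sample were Foxp4, the 7 core subunits, the 8 other subunits and 4 assembly factors with the smallest p, the 4 subunits and 2 assembly factors with the lowest log2 fold change, the 2 most abundant members and the Ndufa4 pair; Ucp1, Ppargc1a, Esrra, Acta1 and up to 4 genes of the 2 other complex I lists also. The values of 1 member that this rule names are not reported here. Cs, the remaining mitochondrial subunits and the genes named for shared sequence were chosen after values were seen, as were the motifs and the centring. Alternatives were another pseudocount, filters, scalings, voom on recovered reads, the replicate number as a block and leaving out each library.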

Additional observations from a re-analysis of the deposited data

How the results depend on the processing

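The absence of members past an adjusted p of 0.05 in limma held under all 13 alternatives. The count higher at an unadjusted p of 0.05 was 31 under median-of-ratios scaling and 28 under upper-quartile scaling, against 20 as reported, where 12.2% and 10.99% of all genes were higher. Leaving out 1 library gave 6 to 27, lowest without knockout replicate 2; the cause was not tested. Over the same fits the median was 0.17 to 0.35 for 36 subunits, lowest without control replicate 1, and 0.17 to 0.26 for 8 assembly factors, which had 0.30 under median-of-ratios scaling. Near-zero differences turned sign. Ndufc2 had 0.067 and 0.051 and Ndufa4l2 0.057 and 0.044 under median-of-ratios and upper-quartile scaling. With 1 library left out the ranges were -0.12 to 0.074 for Ndufc2, -0.21 to 0.34 for Ndufa4l2, -0.035 to 0.11 for Ndufa7, -0.040 to 0.27 for Ndufa1, -0.10 to 0.081 for Ndufaf7, -0.011 to 0.096 for Ndufaf3 and -0.45 to 0.14 for the ratio of Ndufa4l2 to Ndufa4. The other members chosen by the naming rule kept their sign in each alternative run for them, and Ndufaf2 was not fitted at 5 FPKM. Foxp4 had -1.16 to -0.95 with 1 library left out and could not be fitted at 5 FPKM. Same-numbered libraries had correlations of 0.065, 0.027 and -0.25 in their deviations from group means, beside -0.23 to 0.18 for the other pairs. With so few libraries these values cannot show whether a shared number pairs samples, and the labels do not say. With the replicate number as a block 20 members were higher at an unadjusted p of 0.05 in limma, against 5.92% of all genes, 0 were lower, the medians were 0.27 for subunits and 0.22 for assembly factors, and Foxp4 had -1.06. With 3 libraries a group, the library medians had a pooled within-group SD of 0.14 log2 units for subunits and 0.076 for assembly factors, beside differences of 0.27 and 0.22.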
